A study of Saccharomyces cerevisiae with 42 samples.

Results

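The small nucleolar and spliceosomal RNA genes of Saccharomyces cerevisiae were examined in a growth time course of the haploid laboratory strain BY4742. They were taken as the rows of the count tables whose name starts with snR, without snR17a and snR17b, plus LSR1, NME1, RPR1 and SCR1. This gave 83 of the 7127 annotated genes. They comprise 45 C/D box snoRNAs, 29 H/ACA box snoRNAs, 6 rows of spliceosomal RNAs (LSR1, snR6, snR7-L, snR7-S, snR14 and snR19) and 3 other structured RNAs (NME1, RPR1 and SCR1). Cultures in rich medium (YPD) at 30 °C were diluted to an optical density between 0.1 and 0.15, grown for 2 h and sampled as 0 h, and then sampled again 2, 4 and 6 h later. There were 24 libraries at 0 h and 6 each at 2, 4 and 6 h, made with a stranded protocol after polyA selection of total RNA. By their labels, all libraries came from the same unmodified strain, and no treatment is named other than time in culture. The headers of 18 of the count tables at 0 h carry other names, which are given below. In keeping with BY4742, LEU2 had 0 counts in every library, URA3 and LYS2 had at most 1, and MET15 had 902 to 9494, although the study's methods list a met15 deletion for this strain. HIS3, for which the methods list a deletion allele of another number than for LEU2 and URA3, had 153 to 4693 counts. Which part of the gene that allele lacks was not examined, so these counts do not decide on the strain.

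Both snoRNA families guide the modification of other RNAs, chiefly of ribosomal RNA (rRNA). C/D box snoRNAs direct 2′-O-methylation by the methyltransferase Nop1, and H/ACA box snoRNAs direct pseudouridylation by Cbf5, while a few members of each family are needed for cleavage of the rRNA precursor. The spliceosomal RNAs U1 (snR19), U2 (LSR1), U4 (snR14), U5 (snR7) and U6 (snR6) form the core of the spliceosome. NME1 is the RNA of RNase MRP, RPR1 that of RNase P and SCR1 that of the signal recognition particle. The mature forms of these RNAs do not end in the long poly(A) tail of an mRNA, although nuclear precursors can receive a short one from the TRAMP complex before they are trimmed by the exosome. The libraries therefore measured them under a selection for which the mature RNA has no tail, and the values below are levels in polyA-selected RNA.

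The sequences of the snoRNAs on which the time course turns show the C/D family as a short RNA bounded by its boxes. Sequences and coordinates are those of RefSeq for the R64 genome, and the coordinates were identical to those of the count tables for all 83 genes. The 5 C/D snoRNAs with the lowest fitted values at 6 h are given 5′ to 3′ with the core of the C box (TGATGA) and the D box (CTGA) in capitals. They lie at chrIII:177183-177282 (snR65, plus strand), chrXV:259489-259578 (snR50, plus strand), chrVIII:411228-411317 (snR71, plus strand), chrXII:348427-348510 (snR79, minus strand) and chrXV:136088-136183 (snR58, minus strand).
snR65: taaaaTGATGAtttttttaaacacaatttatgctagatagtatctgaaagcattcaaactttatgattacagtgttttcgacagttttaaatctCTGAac
snR50: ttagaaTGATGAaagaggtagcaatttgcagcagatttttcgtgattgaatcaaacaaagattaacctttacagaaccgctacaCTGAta
snR71: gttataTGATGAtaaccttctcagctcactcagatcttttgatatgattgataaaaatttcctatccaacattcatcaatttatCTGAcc
snR79: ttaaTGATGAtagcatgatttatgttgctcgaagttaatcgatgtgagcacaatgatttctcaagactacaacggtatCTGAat
snR58: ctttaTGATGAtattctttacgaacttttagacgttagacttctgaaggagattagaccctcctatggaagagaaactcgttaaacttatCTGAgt

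Searched on the strand of the RNA, TGATGA in the first 30 bases together with CTGA in the last 30 was found in 37 of 45 C/D snoRNAs (82.2%), in 0 of 29 H/ACA snoRNAs, in 0 of the other 9 rows and in 10 of the 7044 remaining genes of the tables (0.142%). ACA exactly 3 bases before the annotated end was found in 14 of 29 H/ACA snoRNAs (48.3%), in 1 C/D snoRNA and in 94 of the 7044 remaining genes (1.33%). The snoRNAs were 78 to 1004 bases long, with a median of 97 bases for C/D and 204 for H/ACA. The class of all 74 snoRNAs was the same as in the RefSeq notes. A further pair of sequences is given because their genes are neighbours whose RNAs are cut from 1 precursor, yet their counts moved apart between libraries. They are snR190 at chrX:139761-139950 and snR128 (U14) at chrX:139566-139691, both on the minus strand, with the boxes again in capitals.
snR190: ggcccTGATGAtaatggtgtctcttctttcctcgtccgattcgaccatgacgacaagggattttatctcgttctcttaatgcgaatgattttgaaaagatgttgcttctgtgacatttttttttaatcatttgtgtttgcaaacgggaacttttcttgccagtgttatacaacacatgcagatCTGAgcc
snR128: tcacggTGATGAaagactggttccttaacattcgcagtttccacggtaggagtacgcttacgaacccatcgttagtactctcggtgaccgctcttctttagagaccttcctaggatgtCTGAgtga

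Where 2 genes share a strand, reads that overlapped both were not counted, and this set how many bases of several genes could be measured. Of the 83 genes, 9 had 0 counts in all 42 whole-gene tables: the 8 snoRNAs inside introns, whose reads also overlap the host gene, and snR7-S, which lies wholly within snR7-L. U5 was thus seen through snR7-L alone, and only by reads that touched the 35 bases outside snR7-S and none within it. It had 0 to 27 such counts per library (median 3). For snR10 the open reading frame YGL088W covers 216 of 245 bases. The counts of snR10 (17 to 257, median 74) came from reads that touched the other 29 bases, at its 3′ end, and none of YGL088W. Such reads can run past the annotated end of snR10. Its level is therefore not comparable with that of other genes, while its change over time uses the same bases in each library. For snR60, 49 of 104 bases overlap YJL047C-A, and for snR73, 81 bases overlap YMR013W-A and 25 do not. Sequences of snR7-L (chrVII:939459-939672, minus strand) and snR10 (chrVII:345986-346230, plus strand) are shown with the bases that could be counted in capitals.
snR7-L: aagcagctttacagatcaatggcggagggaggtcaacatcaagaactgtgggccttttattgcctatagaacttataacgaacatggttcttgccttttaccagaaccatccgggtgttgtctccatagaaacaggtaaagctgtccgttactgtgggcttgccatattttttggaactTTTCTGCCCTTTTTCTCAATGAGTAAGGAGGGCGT
snR10: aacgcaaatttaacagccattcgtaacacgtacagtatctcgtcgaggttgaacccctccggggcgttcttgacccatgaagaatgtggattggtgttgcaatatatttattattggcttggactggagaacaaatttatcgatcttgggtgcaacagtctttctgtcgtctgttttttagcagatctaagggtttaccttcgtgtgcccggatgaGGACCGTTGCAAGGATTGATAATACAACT

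Of the 83 genes, 70 had a mean of at least 10 counts over the 42 libraries and entered the tests, among 6006 tested genes in all. These were 36 C/D snoRNAs, 27 H/ACA snoRNAs, 4 spliceosomal RNAs and the 3 other RNAs. The other 13 were the 9 at 0, snR7-L, snR60, snR73 and snR53, a guide for small-subunit rRNA with a mean of 5.83 counts. Total gene counts ranged from 4339150 to 31908031 per library. Libraries did not form 1 population. The slope of log2 CPM (counts per 1000000 gene counts of a library) on log2 gene length over 5335 genes lay between 0.310 and 0.543 in 10 libraries, here called flat, and between 0.709 and 0.858 in 32, here called steep, with no library between. The flat set held 7 libraries at 0 h (replicates 5, 8, 12, 16, 17, 19 and 21), 1 at 2 h (replicate 1), 0 at 4 h and 2 at 6 h (replicates 2 and 4). In addition, 1 library at each time point stood above the rest in these RNAs (0 h replicate 22, 2 h replicate 4, 4 h replicate 3 and 6 h replicate 3). In the headers of the count tables, 6 libraries of each time point carry a name with 30C and a series number from 1 to 6. These 4, all steep, are the ones with 30C and number 1, and they are called file series 1. The other 18 of the 24 libraries at 0 h have names with 35C, Na200 or 10C there, with numbers of their own, and were kept as 0 h as labelled.

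The 83 genes together held 0.138% to 1.21% of the gene counts of a library at 0 h, with a median of 0.446%. The share was 0.149% to 1.29% at 2 h (median 0.430%), 0.321% to 1.62% at 4 h (median 0.340%) and 0.106% to 1.26% at 6 h (median 0.254%). The highest value at each time was the library of file series 1, at 1.207%, 1.285%, 1.618% and 1.258% in order of time. Without these 4, the steep libraries held 0.169% to 0.825% and the flat libraries 0.106% to 0.333%. In the remaining steep libraries the median share was 0.495% at 0 h (16 libraries), 0.430% at 2 h (4), 0.327% at 4 h (5) and 0.339% at 6 h (3). Rows of rRNA, another class without a poly(A) tail, held 0.000533% to 0.00922% of counts and rows of tRNA 0.00511% to 0.0438%. Reads with several mapping positions were not counted, which can lower rows of genes present in several copies. How far this lowered the rRNA and tRNA rows was not tested. SCR1 alone gave 18.6% of all counts of the 83 genes and LSR1 10.9%, and together with snR30 (7.38%), snR37 (6.03%), snR86 (5.37%) and snR19 (5.17%) they gave 53.5%.

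**Figure D1:**
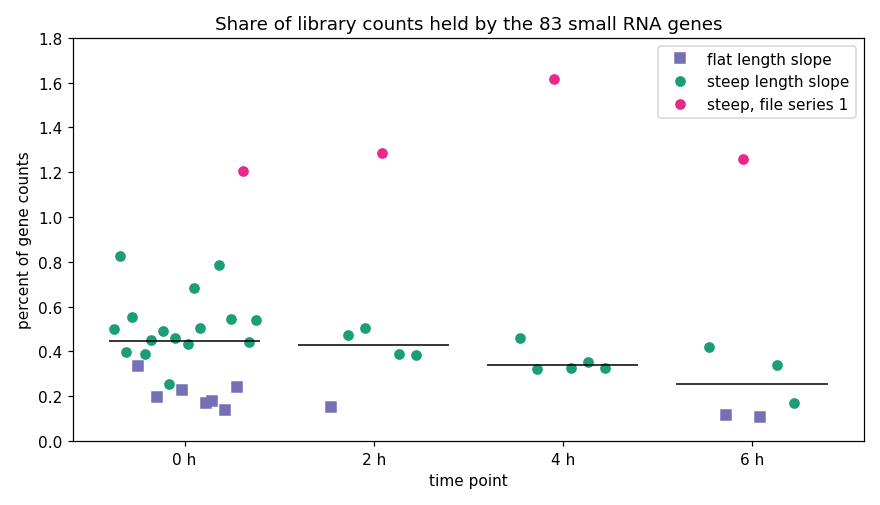
Share of each library's gene counts held by the 83 small RNA genes, in percent (y axis), by time point (x axis). Each point is 1 library, squares mark the flat set, pink points file series 1, and lines the median of a time point. File series 1 is highest at each time (1.207% to 1.618%), and the flat libraries reach 0.333%.

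In CPM per kilobase of gene, the median over 42 libraries ranged from 10.2 (snR58) to 1391 (SCR1) among the 70 tested genes. The median of the class was 61.2 for C/D, 230 for H/ACA, 240.9 for the spliceosomal RNAs and 223 for the 3 others. After SCR1, the highest snoRNAs were snR190 at 710, snR37 at 669, snR128 at 620, snR4 at 609 and snR30 at 492. They were followed by snR49 at 391, snR34 at 383, snR33 (134 to 983 over the libraries), snR8 at 311 and snR13 at 304. The ranges of neighbours in this order overlapped widely, as snR190 ran from 2.64 to 4396 and snR37 from 7.53 to 3185. Their roles differ. The H/ACA snoRNA snR30 and the C/D snoRNA snR128 (U14) are needed for processing of the small-subunit rRNA, snR4 guides acetylation of that rRNA, and snR8, snR33, snR34 and snR37 guide pseudouridylation in the large subunit, for which snR13 guides methylation. Among the spliceosomal RNAs the order was U2 (LSR1, 390), U1 (snR19, 353), U6 (snR6, 128) and U4 (snR14, 84.8), although U4 and U6 act as a base-paired unit. The ranges of U4 (5.06 to 334) and U6 (29.0 to 587) overlapped. NME1 stood at 223 and RPR1 at 143. The sequence of U6, whose level at 0 h went against that of most of these RNAs in the comparison of library sets, lies at chrXII:366235-366346 on the plus strand, and the ACAGAGA that pairs with the 5′ splice site is in capitals.
snR6: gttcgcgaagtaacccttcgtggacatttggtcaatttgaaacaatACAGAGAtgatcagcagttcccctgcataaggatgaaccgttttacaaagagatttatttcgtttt

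RNAs cut from 1 precursor also stood at different levels. The unit from snR78 to snR72 on chromosome XIII holds 7 C/D snoRNAs in a row. In CPM per kilobase its medians were 134 for snR77, 72.6 for snR76, 26.3 for snR72, 23.7 for snR78, 18.6 for snR75 and 10.8 for snR74. The remaining one, snR73, stood at 1.59, with the limit that 25 of its bases could be counted. In the unit of snR67 and snR53 the values were 89.5 and 3.90, and in that of snR61, snR57 and snR55 they were 80.3, 28.0 and 22.1. For snR41, snR70 and snR51 they were nearer, at 137, 134.5 and 102.7. Differences within a unit were not tested, since length, base content and counting differ between its genes.

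**Figure D2:**
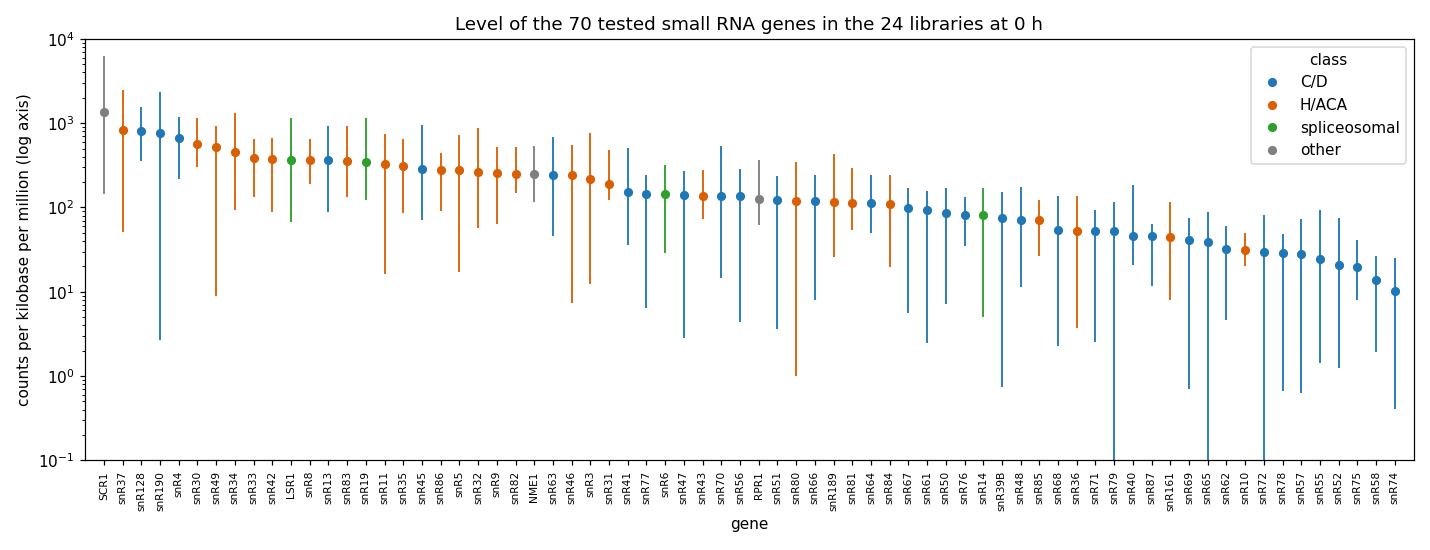
Level of the 70 tested genes at 0 h in CPM per kilobase of gene, on a log axis, ordered by median. Points are medians of 24 libraries, lines run from the lowest to the highest library, colours give the class, and lines that leave the axis reach 0. SCR1 has the highest median (1363), and snR190 spans 2.64 to 2370.

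Spread among the 24 libraries at 0 h was larger for these RNAs than for genes at large. The coefficient of variation of CPM was 27.7% to 92.2% (median 57.1%) for the 70 genes, beside a median of 22.9% for all 6006 tested genes. Within the 17 steep libraries the medians were 36.1% and 13.8%, and without file series 1 they were 31.2% and 13.2%. SCR1 ranged from 76.2 to 3313 CPM at 0 h (median 712), LSR1 from 78.4 to 1370 (median 432), and snR190 from 0.502 to 450 (median 143). In contrast, snR10 ranged from 4.97 to 12.3 CPM (median 7.64) and snR8 from 36.4 to 125 (median 69.8).

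At 0 h, 65 of the 70 genes had a higher median in the 17 steep than in the 7 flat libraries. The ratio of steep to flat medians had a median of 2.96 over the 70 genes (5.39 for C/D and 2.12 for H/ACA), whereas it was 1.16 over all tested genes. For 12 genes (5 C/D and 7 H/ACA) the flat libraries were all below the steep ones, against 17.3% of all genes, so this count was near the background. For 0 genes were they all above, against 7.59% of all genes. The count rested on single libraries. It was 34 without 0 h replicate 21, which was the highest flat library for 41 of 70 genes (background 24.2%), 19 without 0 h replicate 5 (17.6%) and 21 without the steep 0 h replicate 10 (17.7%).

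The largest ratio was that of snR190, a predicted methylation guide for the large subunit. It had 0.502 to 15.9 CPM in the flat libraries (median 1.76) and 55.7 to 450 in the steep ones (median 167), a ratio of 94.9 with no overlap. Its neighbour snR128 had 65.8 to 157 CPM in the flat (median 90.5) and 45.0 to 198 in the steep libraries (median 113), a ratio of 1.25. The flat libraries thus lay below every steep library for snR190 and within their range for snR128, although both RNAs come from 1 precursor. Ratios of 21.5 to 40.95 were found for snR65, snR47, snR49 and snR80. Their median counts in the flat libraries were 2, 10, 61 and 25 in this order, so the ratio of 40.95 (snR65) rests on very few reads. For snR49, an H/ACA guide for both subunits, 1.45 to 68.9 CPM in the flat libraries (median 4.15) stood beside 62.4 to 152 in the steep ones (median 100.7). In the opposite direction, 5 genes had the higher median in the flat libraries. These were snR81 (29.8 to 58.4 against 10.9 to 57.0 CPM, ratio 0.51), snR6 (medians of 24.5 against 13.5), snR76 (12.1 against 7.24), snR64 (13.7 against 10.6) and snR8 (76.96 against 61.3), and the sets overlapped for each of them.

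GC content, which differed from 23% (snR62) to 55.0% (SCR1) with a median of 36%, went along with this ratio across genes. Spearman's rho between GC and the ratio was -0.69 over the 70 genes (Pearson's r with the log2 ratio -0.58), -0.52 over the 36 C/D and -0.90 over the 27 H/ACA snoRNAs, beside -0.57 over 6004 tested genes. The genes share the same libraries and are not independent replicates. With gene length rho was -0.34 over the 70 genes and 0.49 over all genes, and with the longest run of A it was 0.05. SCR1, with the highest GC content, stood apart with a ratio of 5.50. The part of GC content or length in the ratios was not tested.

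**Figure D3:**
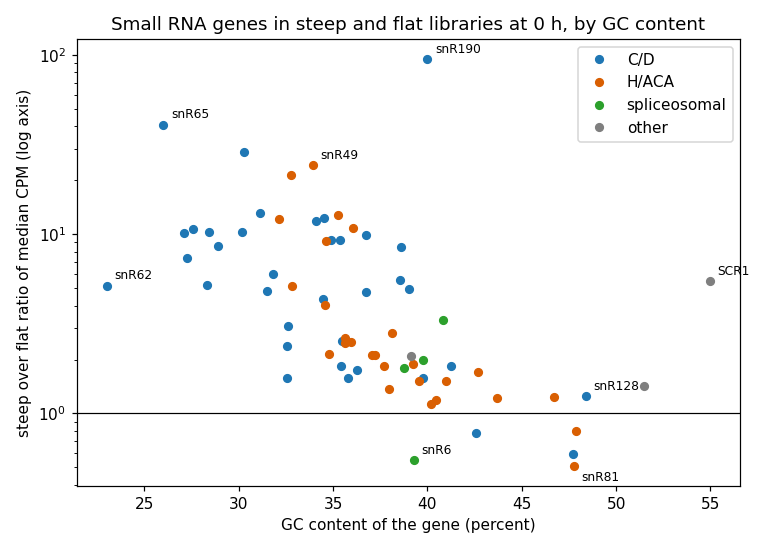
Ratio of the median CPM in the 17 steep libraries to that in the 7 flat libraries at 0 h (y axis, log axis) against GC content in percent (x axis) for the 70 tested genes, coloured by class. The line marks a ratio of 1. Ratios fall as GC content rises (Spearman's rho -0.69), with snR190 highest at 94.9 and 5 genes below 1.

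File series 1 was set apart because its libraries stood highest in these RNAs, so the following counts describe that choice and test nothing. It exceeded all other steep libraries of its time point at all 4 times for 36 of the 70 genes, beside 8.03% of all tested genes. At 3 or more times this held for 60 of 70, beside 1181 of 6006. For SCR1 the ratio to the median of the other steep libraries was 4.08 to 4.74. The median ratio over the times was 10.3 for snR52, 9.06 for snR40, 7.28 for snR32 and 6.02 for snR6. The exceptions included snR10, for which the 4 libraries were at no time the highest and the median ratio was 0.67, and snR71 at 0.79. Rows of tRNA in these 4 libraries held 0.0156%, 0.0153%, 0.0144% and 0.00976% of counts in order of time. The other steep libraries of the same times reached 0.0148%, 0.0130%, 0.0108% and 0.00557%, and the flat 6 h replicate 2 had 0.0438%. What sets these 4 libraries apart was not tested, and counts over time are given with and without them.

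The 8 intron-encoded snoRNAs could be counted in the exon tables, where the host's intron is not a feature. They are snR18 in EFB1 and snR38 in TEF4, genes of translation elongation factors, snR24 in ASC1, snR39 and snR59 in the second introns of RPL7A and RPL7B, snR44 in RPS22B, snR54 in IMD4 and snR191 in NOG2. The host introns are 273 to 532 bases long, and the snoRNAs begin at least 79 bases after the 5′ splice site and end at least 105 bases before the 3′ one. All are on the strand of the host, and 6 are C/D and 2 (snR44 and snR191) H/ACA. Such snoRNAs are normally released from the excised intron. Here snR44 had 192 to 2353 exon counts per library (median 971), snR191 92 to 1014 (median 462.5) and snR18 125 to 798 (median 383). The others were lower, with medians of 156 for snR54, 119 for snR39, 117 for snR38, 96.5 for snR24 and 31.5 for snR59.

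Unspliced host RNA also covers a snoRNA, so its counts per 100 bases were set beside those of the rest of the host's introns. Reads that touched a snoRNA only in part were counted for it. Reads that touched the snoRNA or an exon were left out of the rest. The ratio can thus exceed 1 for unspliced RNA alone, and it does not separate such RNA from released snoRNA. The snoRNA was the denser in 40 to 42 of 42 libraries for 7 of the 8. The median ratio was 5.16 for snR191, 4.48 for snR24, 4.38 for snR44, 3.97 for snR18, 2.68 for snR39, 2.12 for snR54 and 2.00 for snR38. The exception was snR59, at 0.64, which was denser in 8 libraries, with 40.4 counts per 100 bases beside 65.2 in the rest of the RPL7B introns. The ratio was similar in the steep and the flat sets for snR59, at 0.60 and 0.67, and for snR39, at 2.69 and 2.32. It differed more, and in opposite directions, for snR24, at 4.63 and 2.57, and for snR18, at 3.785 and 5.62.

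The contrast between snR39 and snR59 is between close relatives in paralogous hosts, which guide methylation at the same adenosine of large-subunit rRNA. Their sequences, at chrVII:365163-365251 on the minus strand and chrXVI:173827-173904 on the plus strand, share a longest run of 14 bases (atcaccatctttcg). With the boxes in capitals they read as follows, and snR44 (chrXII:856710-856920, plus strand), the intronic snoRNA with the most exon counts, is added in lower case.
snR39: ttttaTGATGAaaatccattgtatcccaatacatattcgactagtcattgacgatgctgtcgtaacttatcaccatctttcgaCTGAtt
snR59: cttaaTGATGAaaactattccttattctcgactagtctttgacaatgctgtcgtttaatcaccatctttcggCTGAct
snR44: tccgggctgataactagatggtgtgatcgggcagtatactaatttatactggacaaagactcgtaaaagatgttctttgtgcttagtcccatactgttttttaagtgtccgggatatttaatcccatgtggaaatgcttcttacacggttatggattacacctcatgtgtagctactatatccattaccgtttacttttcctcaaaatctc

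At 0 h the intronic snoRNAs followed the other snoRNAs in the order of the library sets. In exon CPM, snR54 had 1.42 to 21.4 in the flat libraries (median 2.01) and 12.2 to 30.9 in the steep ones (median 18.3). For snR38 the medians were 1.39 and 13.5, for snR39 1.23 and 10.3, and for snR24 2.85 and 9.09. For snR18 they were 23.4 and 31.9, with widely overlapping ranges. snR191 had 6.85 to 24.0 in the flat and 29.5 to 98.5 in the steep libraries, and snR59 had 0.0579 to 1.803 and 2.24 to 8.31. The sets did not overlap for these 2 of the 8, and in exon CPM 17.4% of all tested genes had the flat libraries all below the steep ones.

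**Figure D4:**
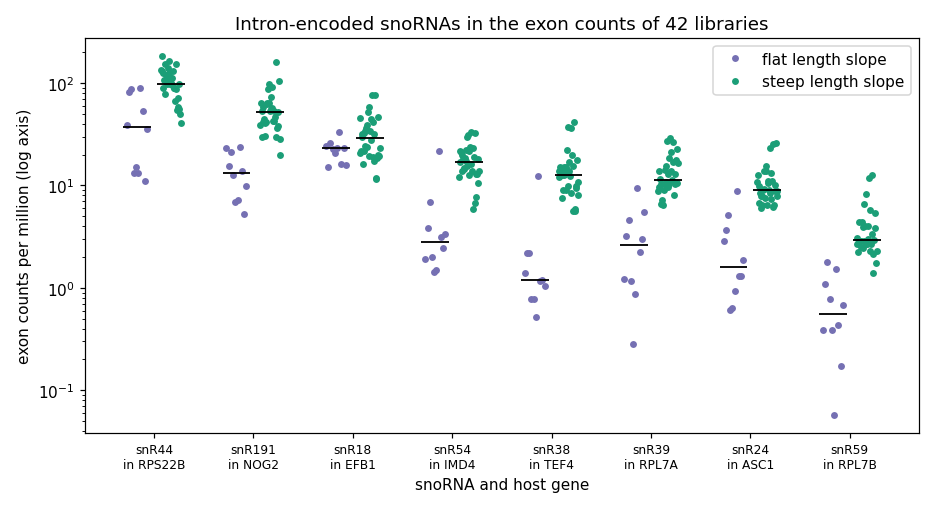
Exon CPM of the 8 intron-encoded snoRNAs (y axis, log axis) in 42 libraries, with the host gene below each name. Purple points are the 10 flat and green points the 32 steep libraries, and lines are medians. The flat set lies lower for each snoRNA, least for snR18, and snR44 is highest with a median of 89.8 CPM over all libraries.

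Turning to the time course, 19 of the 70 tested genes fell at 6 h against 0 h and 0 rose, at an adjusted p under 0.05. Among all 6006 tested genes, 18.6% fell and 25.4% rose. The median log2 change was -0.58 for the 70 genes and 0.03 for all genes, and 60 of the 70 fitted changes were negative. The genes that fell were 12 of 36 C/D and 7 of 27 H/ACA snoRNAs, while 0 of 4 spliceosomal and 0 of 3 other RNAs passed the test. At an unadjusted p under 0.05, 23 genes were lower and 0 higher. Libraries came from bulk cultures, so that fewer cells with an RNA and less of it per cell cannot be told apart, and the p-values measure the spread between these libraries. The study describes its growth curves for sequencing as independent experiments started from single colonies, without tying each library to one of them.

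The count depended on the libraries that stood apart. It was also higher with a replicate block of the file series or of the titles, as given at the end. In those fits 14.4% and 11.8% of all genes fell. Without 6 h replicate 3, 40 of the 70 genes fell, and without the whole of file series 1, 46 fell (22 C/D, 23 H/ACA and NME1), against 18% of all genes. With a term for the library set the count was 31, against 27.9%. In the steep libraries without file series 1, with 3 libraries left at 6 h, it was 55 (27 of 36 C/D, 27 of 27 H/ACA, 0 of 4 spliceosomal and 1 of 3 other RNAs), against 28.9%. The 19 genes were among those called in each of these last 3 fits, and 16 of them in the fit of all 32 steep libraries. That fit called 21 of the 70 lower, near its background of 27.6%. The median log2 change was -1.37 without file series 1 and -1.16 in the steep libraries without it, with -0.01 for all genes in the latter. File series 1 was chosen by its high level in these same RNAs. Leaving it out takes away the highest share of 6 libraries at 6 h, but 1 of 24 libraries at 0 h. That choice by itself lowers the 6 h values, so the fits without it describe how the count depends on these libraries and are no separate support.

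**Figure D5:**
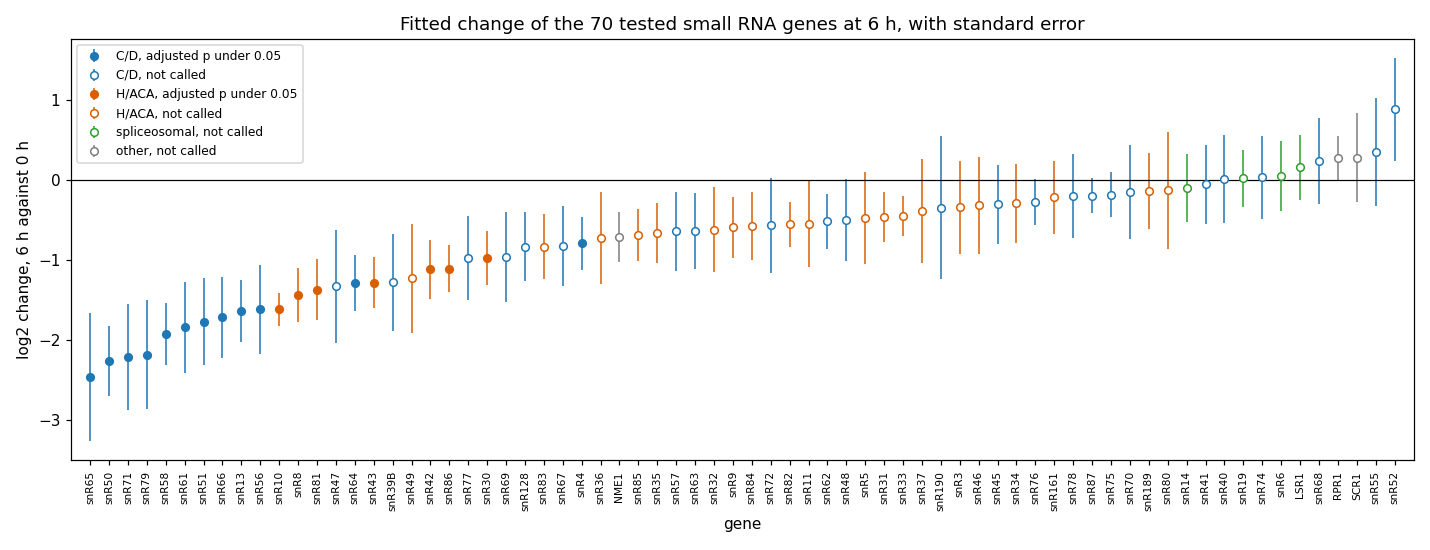
Fitted log2 change at 6 h against 0 h (y axis) of the 70 tested genes, ordered by size, with its standard error. Filled points have an adjusted p under 0.05 (edgeR's quasi-likelihood test over 6006 genes), and colours give the class. All 19 filled points are C/D or H/ACA snoRNAs below 0, and the spliceosomal RNAs lie near 0.

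Among C/D snoRNAs, snR50, a guide for large-subunit rRNA, had the lowest adjusted p. It had 0.636 to 15.1 CPM at 0 h (median 7.74), 1.89 to 6.68 at 2 h (median 4.77), 1.95 to 5.00 at 4 h (median 2.87) and 0.792 to 4.15 at 6 h (median 1.26). All 6 libraries at 6 h lay below the 0 h median, and the ranges of 0 h and 6 h overlapped. The log2 change at 6 h was -2.27 (standard error 0.44, adjusted p = 4.73e-05). snR58, also a guide for the large subunit and the lowest of the tested genes, had 0.186 to 2.58 CPM at 0 h (median 1.32) and 0.249 to 0.561 at 6 h (median 0.394), a fitted change of -1.92 (log2, standard error 0.38, adjusted p = 7.62e-05, below the 0 h median in 6 of 6). The libraries at 6 h held only 4 to 15 counts of snR58, near the floor of counting, and the 2 mates of a pair were counted singly.

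The largest fitted decrease was that of snR65, a guide for the large subunit, at -2.46 on the log2 scale (standard error 0.80, adjusted p = 0.011). It had 0 to 8.81 CPM at 0 h (median 3.845) and 0 to 1.57 at 6 h (median 0.812), where a count of 0 allows up to 0.135 CPM in 0 h replicate 12 and 0.119 CPM in 6 h replicate 4. All 6 libraries at 6 h were below the 0 h median. The 7 flat libraries at 0 h had a median of 0.116, below that of 6 h. snR71, for the large subunit, went from a median of 4.72 CPM to 1.035 (log2 change -2.21, standard error 0.66). snR79, for the small subunit, went from 4.38 to 0.828 (-2.19, standard error 0.68), again below the 0 h median in 6 of 6 libraries each. Counts per library at 6 h were 0 to 18 for snR65, 0 to 39 for snR71 and 2 to 31 for snR79, so these decreases rest on few reads.

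snR61, snR51, snR66, snR13 and snR56 followed, with log2 changes of -1.84, -1.77, -1.72, -1.64 and -1.62 and adjusted p-values from 0.000572 to 0.0154. snR51, a guide for sites in both subunits, had 0.390 to 25.5 CPM at 0 h (median 13.2) and 0.792 to 12.2 at 6 h (median 3.36). snR13 is the most abundant per length among these 5. It had 10.9 to 115 CPM at 0 h (median 45.2) and 3.25 to 50.4 at 6 h (median 12.0), with 5 of 6 libraries below the 0 h median. The one above it was 6 h replicate 3, of file series 1. The remaining C/D snoRNAs that fell were snR64 (-1.29) and snR4 (-0.79, adjusted p = 0.048). Of the 24 C/D snoRNAs that did not pass, 19 had a negative and 5 a positive value, from -1.33 (snR47) to 0.88 (snR52).

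Genes of 1 precursor did not give the same result. From the snR57-snR55-snR61 unit, snR61 fell (-1.84), whereas snR57 had a log2 change of -0.64 (adjusted p = 0.30) and snR55 of 0.35 (adjusted p = 0.71). From the snR41-snR70-snR51 unit, snR51 fell (-1.77), whereas snR41 had -0.06 and snR70 -0.15. The differences between genes of a unit were not tested. For snR190 and snR128 the values were -0.35 (standard error 0.90) and -0.84 (standard error 0.43), neither passing. Without file series 1, which was set apart by its high level in these RNAs, the fitted value of snR128 was lower by 1.88 on the log2 scale, while snR190 had -1.18.

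Among the H/ACA snoRNAs, all 27 fitted changes at 6 h were negative. Those that fell were snR10, snR8, snR81, snR43, snR42, snR86 and snR30. snR10, which is needed for cleavage of the rRNA precursor and also guides pseudouridylation in the large subunit, was the 1 gene of the 70 with no overlap between 6 h and 0 h, against 0.982% of all genes, a count near the background. It had 4.97 to 12.3 CPM at 0 h (median 7.64), 4.61 to 7.99 at 2 h (median 6.50), 2.49 to 6.37 at 4 h (median 4.79) and 1.91 to 4.18 at 6 h (median 2.675). The log2 change was -1.62 (standard error 0.21, adjusted p = 2.57e-08), and -1.56 without file series 1. This measurement rests on reads that touch the 29 bases shown in capitals above, and it can include RNA that runs past the annotated end.

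snR8 had 36.4 to 125 CPM at 0 h (median 69.8) and 10.6 to 79.0 at 6 h (median 18.7), a fitted change of -1.44 (log2, standard error 0.33, adjusted p = 0.000502, below the 0 h median in 5 of 6). snR81, which guides sites in large-subunit rRNA and in U2, had 10.9 to 58.4 CPM at 0 h (median 22.9) and 3.42 to 23.9 at 6 h (median 9.41), a log2 change of -1.37 (adjusted p = 0.00292). snR30, essential for small-subunit rRNA processing, had 184 to 706 CPM at 0 h (mean 354) and 49.3 to 652 at 6 h (mean 203), a fitted change of -0.98 (log2, standard error 0.33, adjusted p = 0.0154). Its highest library at 6 h was replicate 3 and the next had 189 CPM, and without file series 1 the change was -1.71. snR37, among the most abundant per length, had 19.9 to 964 CPM at 0 h (median 319) and 2.91 to 952 at 6 h (median 128), and its log2 change of -0.39 (standard error 0.64) did not pass. snR49 (-1.23, standard error 0.68), snR34 (-0.30) and snR33 (-0.45) did not pass either. The 20 H/ACA snoRNAs that did not pass ranged from -1.23 (snR49) to -0.13 (snR80).

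For the intronic snoRNAs the exon counts were tested. snR44 fell, from 13.2 to 184 exon CPM at 0 h (median 102) to 11.0 to 98.2 at 6 h (median 45.4), with a fitted change of -1.16 (log2, standard error 0.35, adjusted p = 0.00682). In that fit 20 of 78 of the small RNA genes fell and 0 rose, against 19% of all genes that fell. The other 7 intronic snoRNAs did not pass, with log2 changes from -0.67 (snR54) to 0.42 (snR39, standard error 0.44). Exon CPM of snR39 had medians of 9.19 at 0 h and 13.5 at 6 h. Among the mRNAs of the 8 host genes, 7 fell at 6 h, by 0.44 (RPS22B) to 0.85 (TEF4) on the log2 scale, and NOG2 did not pass. At 4 h 5 host genes fell and at 2 h 0. Among all tested genes 18.6% fell at 6 h and 15.7% at 4 h.

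The spliceosomal RNAs showed no change that passed the test at any time. U1 (snR19) had 69.5 to 647 CPM at 0 h (median 198) and 56.6 to 719 at 6 h (median 160), a log2 change of 0.02 (standard error 0.36). U2 (LSR1) had 78.4 to 1370 CPM at 0 h (median 432) and 151 to 1365 at 6 h (median 432), a log2 change of 0.16 (standard error 0.41). U4 (snR14) had 0.809 to 27.0 CPM at 0 h (median 12.9) and 1.08 to 36.5 at 6 h (median 11.2), with -0.10 (standard error 0.42). U6 (snR6) had 3.24 to 35.8 CPM at 0 h (median 16.1) and 5.33 to 65.3 at 6 h (median 13.1), with 0.05 (standard error 0.44). The standard errors leave room for changes in either direction, and the sign of all 4 depended on the libraries used. Without file series 1 the values were -0.55 for snR19, -0.21 for LSR1, -0.59 for snR14 and -0.66 for snR6, of which none passed the test. U5, outside the test, had 0 to 0.929 CPM at 0 h (median 0.235) and 0.239 to 1.54 at 6 h (median 0.621) in the countable bases of snR7-L.

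RNA polymerase III transcribes SCR1, RPR1, snR6 and the C/D snoRNA snR52, and polymerase II the others. None of these 4 passed the test at 6 h, with log2 changes of 0.28 (SCR1, standard error 0.55), 0.28 (RPR1, standard error 0.27), 0.05 (snR6) and 0.88 (snR52, standard error 0.64). SCR1 had 177 to 3658 CPM at 6 h (median 598) beside a 0 h median of 712, and RPR1 had 24.7 to 126 (median 58.5) beside a 0 h median of 47.0. Without file series 1 the value of SCR1 was -0.43 and that of RPR1 0.15. NME1, a polymerase II transcript whose particle acts in rRNA processing, had 39.2 to 182 CPM at 0 h (median 83.7) and 20.4 to 144 at 6 h (median 42.8). Its log2 change of -0.71 (standard error 0.31, adjusted p = 0.061) did not pass. Without file series 1, which was set apart by its high level in these RNAs, it was -1.13.

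At 4 h, 7 of the 70 genes fell, against 15.7% of all genes, and 0 rose, against 16.9%, with 8 genes lower and 0 higher at an unadjusted p under 0.05. These 7 were snR81 (-1.41, standard error 0.38), snR50 (-1.36), snR58 (-1.29), snR10 (-0.93, standard error 0.20, adjusted p = 0.000444), snR64 (-0.93), snR8 (-0.87) and snR43 (-0.76, adjusted p = 0.049), and all 7 also fell at 6 h. snR81 had 6.24 to 28.1 CPM at 4 h (median 10.3), and snR8 19.2 to 119 (median 29.0), in each case with 5 of 6 libraries below the 0 h median. The median log2 change at 4 h was 0.06. The count was 4 without any 1 of 4 h replicates 1, 4, 5 and 6 and 11 without replicate 3, of file series 1. It was 16 without file series 1 (background 16.6%), 17 with a term for the library set (17.2%) and 54 in the steep libraries without file series 1 (23.7%), with a median of -0.77. At 2 h, 0 of the 70 genes passed in either direction, against 0.117% of all genes, with 1 gene (snR58) at an unadjusted p under 0.05 and a median of -0.05.

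The proteins that bind and make these RNAs were followed as lists, beside 18.6% of all tested genes that fell at 6 h and 15.7% at 4 h, and 25.4% and 16.9% that rose. All 4 core proteins of C/D particles fell at 6 h, namely the methyltransferase NOP1 (-0.48, adjusted p = 0.000886), NOP56 (-0.48), NOP58 (-0.59) and SNU13 (-0.83), which also binds U4. All 4 also fell at 4 h. Of the H/ACA core, the pseudouridine synthase CBF5 (-0.47) and NOP10 (-0.57) fell at 6 h, and all 4 members fell at 4 h. Among 9 assembly factors 4 fell at 6 h and 6 at 4 h, including the helicases RVB1 and RVB2 at both times. Of 15 genes for termination and processing, 9 fell at 6 h and 10 at 4 h, among them NRD1 (-0.62 at 6 h) and NAB3 (-0.55), which end snoRNA transcription, the endonuclease RNT1 (-0.68) and PAP2 (-0.47), the poly(A) polymerase of TRAMP. None in these 4 lists rose.

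Of 11 RNase P and MRP proteins, 2 fell and 1 rose at 6 h (POP1, 0.39). Of 6 proteins of the signal recognition particle 3 fell and 0 rose, and of 24 proteins of the spliceosomal particles 2 fell (MSL1, of U2, and PRP24, of U6) and 3 rose, which were the U1 proteins SNP1 (0.23), MUD1 (0.30) and NAM8 (0.58). For the spliceosomal proteins both counts were below the shares of all genes at 6 h, 18.6% lower and 25.4% higher. Differences between the lists were not tested. At 2 h 0 genes of these lists passed. The median log2 change at 6 h was -0.54 for the C/D core, -0.48 for the H/ACA core, -0.43 for termination and processing and -0.04 for the spliceosomal proteins, beside 0.03 for all tested genes.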

How the data were processed

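RNA was sequenced after polyA selection with a stranded protocol from 42 culture samples of BY4742 at 4 time points. The authors deposited 2 tables of read counts per library, over whole genes and over exons, without normalization. Per the file headers these counts were made with featureCounts 2.0.3 on the Ensembl annotation R64-1-1.106, with strand. Reads with several mapping positions, or over more than 1 gene of a strand, were left uncounted. The mates of a pair were counted singly, as small even counts exceed odd ones (5514 values of 2 beside 4799 of 1). The submitters' processing notes also name STAR and StringTie. The study's methods name a ComBat-seq adjustment, of which the headers show no trace.

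The 83 genes and the protein lists were chosen with earlier results of these data known. CPM is counts per 1000000 gene counts of a library, and exon CPM the same over exon counts. Genes with a mean of at least 10 counts were tested with edgeR 4.0.16 (R 4.3.3), by the quasi-likelihood test with TMM scaling, time point as the 1 factor and Benjamini-Hochberg adjustment over all tested genes, at an adjusted p under 0.05. The test was checked on simulated data. Named are the spliceosomal RNAs, SCR1, NME1, RPR1 and all intronic snoRNAs, among other snoRNAs the 10 highest by median level per length, and per contrast the 10 largest called changes. Other genes named with values were chosen after these were seen. No 2 libraries of a group agreed within sampling noise (321 pairs, lowest chi-square per degree of freedom 8.24). No column of other samples was present. Alternatives were library totals, RLE size factors, DESeq2 1.42.0, other count minimums, exon counts, a term for the library set, 6 libraries at 0 h whose file numbers continue into the later times, replicate blocks and single libraries left out. A further 5, which leave out file series 1 or the flat set or combine exon counts with the library set, were chosen after seeing the data, as were the library sets. Depth is given in the text above. Sequences and roles are from RefSeq (R64).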

Additional observations from a re-analysis of the deposited data

Results flagged for a closer look

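In groups of 6 libraries, a value was singled out where its gap to the nearest other value was large for the range of the group, at a limit that chance passes in about 1 of 20 groups. Of 37 groups tested, 23 were singled out, and in each the library was that of file series 1. These libraries had been set apart by their high level in the same RNAs, so the count repeats that choice and tests nothing. In addition, 34 of the 37 groups are genes read in the same 6 libraries at 6 h. They are not separate draws, and the rate of 1 in 20 cannot be set against their number. The share of library counts held by the 83 genes was 1.285% in 2 h replicate 4 (others 0.149% to 0.505%), 1.618% in 4 h replicate 3 (others 0.321% to 0.459%) and 1.258% in 6 h replicate 3 (others 0.106% to 0.418%). The same 6 h library was singled out for 20 of the 34 named genes tested at 6 h, with the values that follow in CPM.

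Among spliceosomal and other RNAs it had 719.4 for snR19 (highest of the others 252), 65.34 for snR6 (16.7) and 3658 for SCR1 (1046). Of the most abundant snoRNAs it had 457.4 for snR190 (149.7), 951.9 for snR37 (258), 262.4 for snR128 (63.2), 231.6 for snR4 (90.96), 651.5 for snR30 (188.6), 124.4 for snR49 (44.2), 324.6 for snR34 (88.8), 121.2 for snR33 (62.9) and 79.03 for snR8 (33.2). Of the snoRNAs that fell at 6 h it had 4.154 for snR50 (1.504), 3.48 for snR79 (1.07), 8.757 for snR61 (2.12), 12.24 for snR51 (3.82), 9.543 for snR66 (3.43) and 50.41 for snR13 (17.2). In exon CPM it had 25.97 for snR24 (8.78) and 46.52 for snR18 (23.3).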

How the results depend on the processing

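Of the 70 genes, 19 fell at 6 h and 7 at 4 h. At 6 h the count was 5 of 21 genes left by a minimum of 75 counts in every library, 31 with a term for the library set, 32 with exon counts and that term, 46 without file series 1 and 55 in the steep libraries without it. At 4 h it was 4 with library totals, 1 with the minimum of 75, 17 with the term for the set, 17 with exon counts and that term, 1 with the 6 continuing 0 h libraries, 16 without file series 1, 16 in the steep libraries, 17 there with exon counts and 54 in the steep libraries without file series 1. At 2 h the last fit called 2 lower. With no filter 1 gene rose at 6 h (snR7-L, log2 change 1.27, adjusted p = 0.0229). Leaving out single libraries gave 17 to 40 genes at 6 h and 4 to 11 at 4 h. The median share of counts at 0 h was 0.1948% within the flat set, and leaving out 1 library moved it over 0.388% to 0.472% at 2 h, 0.327% to 0.353% at 4 h and 0.169% to 0.339% at 6 h.

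Deviations of same-numbered libraries had a correlation over 0.1 in 27 of 36 pairs by file series (from -0.70 to 0.82) and in 18 of 36 by title. Libraries of the same number are not stated to share a culture, and the main test left them unpaired. It thus takes no account of what libraries of a series share, although most pairs by file series were correlated. Its counts should be read beside those of the block fits that follow. By file series 39 of 72 best matches of a library at another time had its own number, and by title 18 of 72, where 1 of 6 candidates carries that number. With a replicate block of the file series 33 genes fell at 6 h (14.4% of all genes) and 6 at 4 h (240 of all 6003), and with one of the titles 23 at 6 h (11.8%) and 3 at 4 h (2.41%).

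Values that changed sign at 6 h passed no test under either setting. snR19 was -0.01658 with RLE, -0.0162 with DESeq2, -0.06069 with the set term, -0.06639 with exon counts and that term, -0.4049 with 6 libraries at 0 h, -0.4697 and -0.5846 with the blocks of titles and series, -0.5549 without file series 1 and -0.4202 in the steep libraries without it. LSR1 was -0.3228 with 6 libraries, -0.1342 and -0.3169 with the blocks, -0.2083 without file series 1 and -0.1732 in the steep libraries without it. snR6 was -0.6428 and -0.05293 with the blocks, -0.659 without file series 1 and -0.8452 in the steep libraries without it. SCR1 was -0.4341 with 6 libraries, -0.3134 and -0.6277 with the blocks, -0.4338 without file series 1 and -0.3845 in the steep libraries without it. RPR1 was -0.1448 with 6 libraries, -0.1742 with the series block, -0.001209 in the steep libraries and -0.3709 there without file series 1. snR14 was 0.02669 with library totals, 0.04038 in the steep libraries and 0.04224 there with exon counts. snR24 was -0.05998 with exon counts and the set term. Leaving out single libraries gave -0.6562 to 0.2035 for snR19, -0.3164 to 0.3332 for LSR1, -0.6773 to 0.249 for snR6 and -0.6108 to 0.4876 for SCR1, each lowest without 6 h replicate 3, and -0.629 to 0.1301 for snR14. The cause was not tested. Library totals moved the median of all genes to 0.14 at 6 h, with 1860 higher and 761 lower. Over all named genes and settings, 560 values kept direction and call, 57 lost and 30 gained the call.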
